A study of Mus musculus with 96 samples.

Results

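The 12 libraries described here are the RNA sequencing libraries of RevScapTKO hepatocytes, with 3 libraries at each of 4 zeitgeber times, out of 96 libraries in the series. Zeitgeber time (ZT) counts hours from lights on, lights went off at ZT12, and the samples were taken at ZT4, ZT10, ZT16 and ZT22, so each time stands 6 h from the next. They were chosen by label alone, as the RevScapTKO hepatocyte columns of the table that also holds Control and RevDKO hepatocytes (12 libraries each). The question was which transcripts varied over the day in hepatocytes without REV-ERBs and SCAP, and whether their daily pattern differed from that of the other genotypes.

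All 3 groups were male C57BL/6J mice with floxed alleles that ate a diet high in fat and sucrose (D12492i) for 4 weeks. Control mice received an AAV that encodes GFP under the TBG promoter, which is active in hepatocytes, and the knockout mice received an AAV that encodes CRE under the same promoter. RevDKO hepatocytes lack Nr1d1 and Nr1d2, the genes for REV-ERBα and REV-ERBβ, and RevScapTKO hepatocytes (labelled Reverb/ScaphTKO) lack these and Scap. The labels name the cells hepatocytes, while their extraction text speaks of liver tissue and of isolated endothelial or Kupffer cells. Nothing in the labels says which mice a library came from, so the p-values measure the spread between libraries, which may be partly technical.

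In the hepatocyte clock, BMAL1 (encoded by Arntl) pairs with CLOCK or its paralog NPAS2 and activates genes that carry E-boxes, among them the Per and Cry genes, whose proteins repress the pair. REV-ERBs repress Arntl, Npas2 and Cry1 through the sequence called RORE, where ROR proteins activate them, and the PAR bZIP factors such as DBP act through D-boxes. SCAP escorts the SREBP factors from the endoplasmic reticulum for their activation, and SREBPs turn on genes of cholesterol and fatty acid synthesis.

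The promoters of 3 clock genes are printed because each holds one of these motifs and because the daily ranges of these genes are compared with Control further on. The sequences are from RefSeq on build mm9, run from 250 bases before to 50 bases after the transcript start, and read 5′ to 3′ on the strand of the gene. Capitals mark the motif. Arntl (chr7:120350775-120351074, plus strand) holds a RORE (AGGTCA), Cry1 (chr10:84647750-84648049, minus strand) holds an E-box (CACGTG), and Per3 (chr4:150418725-150419024, minus strand) holds 2 D-boxes (TTANGTAA).
Arntl: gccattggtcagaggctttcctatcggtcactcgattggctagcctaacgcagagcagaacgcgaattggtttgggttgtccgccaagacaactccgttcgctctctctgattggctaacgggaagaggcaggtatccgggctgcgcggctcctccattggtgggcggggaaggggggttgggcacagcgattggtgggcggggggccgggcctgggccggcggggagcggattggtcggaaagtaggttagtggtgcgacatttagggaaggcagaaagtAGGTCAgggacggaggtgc
Cry1: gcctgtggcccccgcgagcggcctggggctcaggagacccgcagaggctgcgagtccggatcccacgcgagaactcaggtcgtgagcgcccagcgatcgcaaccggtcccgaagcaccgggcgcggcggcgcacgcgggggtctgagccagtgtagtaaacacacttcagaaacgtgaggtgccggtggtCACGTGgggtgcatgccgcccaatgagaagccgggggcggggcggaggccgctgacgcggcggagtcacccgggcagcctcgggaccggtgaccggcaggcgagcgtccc
Per3: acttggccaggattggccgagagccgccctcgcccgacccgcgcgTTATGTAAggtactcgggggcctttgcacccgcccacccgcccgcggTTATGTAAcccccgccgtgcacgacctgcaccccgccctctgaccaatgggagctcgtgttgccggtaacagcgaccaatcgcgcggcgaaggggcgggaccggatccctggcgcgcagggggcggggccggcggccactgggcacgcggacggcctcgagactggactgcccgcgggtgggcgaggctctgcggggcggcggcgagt

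Both strands were searched. Of the 12551 promoters found for tested genes, 12.8% held the RORE letters, 9.86% the E-box, 1.52% the D-box and 1.09% the SREBP motif SRE-1 (TCACNCCAC). Among the 12 core clock genes, 2 held a RORE (Arntl and Nr1d2), 2 an E-box (Cry1 among them) and 2 a D-box (Per2 and Per3). A match describes these letters in this window and is not evidence of binding.

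Values are RPKTM, reads per kilobase of transcript scaled to 10000000 reads, which the authors had quantile normalized over the 36 hepatocyte libraries. Depth is unknown. The 12 RevScapTKO libraries correlated with each other at 0.881 to 0.977 (log2 values across genes), and the lowest mean correlation, 0.91, belonged to ZT4 replicate 2. Of the targeted genes, Scap lay between 82.8 and 299 RPKTM in the RevScapTKO libraries, below every Control library (395 to 698) and every RevDKO library (321 to 733). Nr1d1 lay between 51.2 and 231 RPKTM and Nr1d2 between 228 and 450 RPKTM in RevScapTKO. The values are given per transcript, with no separate value for the deleted exons, so these levels do not check the deletion. All 12 hepatocyte markers, albumin among them, were above 0 in every library.

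No gene passed the test among the 4 times. Of 12563 genes with at least 3 libraries over 5 RPKTM, 0 (0%) had a Benjamini-Hochberg adjusted p under 0.05 by limma's F test on log2(RPKTM + 1), and the smallest adjusted p was 0.285, for Gfra2 and Snora81. An unadjusted p under 0.05 was found for 1310 genes (10.4%). None of the 6 pairs of times gave a call either, with 454 (ZT22 against ZT16) to 1771 (ZT10 against ZT4) genes at an unadjusted p under 0.05, nor did a 24 h cosine (0 genes, 1323 or 10.5% unadjusted). The same F test gave 870 genes (6.89% of 12620) in Control and 456 (3.63% of 12579) in RevDKO. The median SD between libraries of 1 time was 0.39 on the log2 scale in RevScapTKO against 0.323 in both Control and RevDKO. Leaving out ZT4 replicate 1 gave 3 genes by the F test, 388 genes between ZT10 and ZT4, 5 between ZT16 and ZT4 and 11 between ZT22 and ZT4. Leaving out ZT10 replicate 2 gave 1 gene by the F test, and leaving out ZT4, ZT10 and ZT22 replicate 2 together, which was chosen after seeing the data, gave 0. With the spread estimated from all 36 libraries instead of 12, 116 genes (0.923%) passed the F test, of which 58 were lowest at ZT4. Their adjusted p in the fit of 12 libraries ranged from 0.285 to 0.461, and when those 3 libraries were left out 3 genes passed, 2 of them among the 116. Between pairs this spread gave 204 genes (1.62%) for ZT10 against ZT4, 91 (0.724%) for ZT16 against ZT4, 211 (1.68%) for ZT22 against ZT4, 2 (0.0159%) for ZT16 against ZT10, 8 (0.0637%) for ZT22 against ZT10 and 0 (0%) for ZT22 against ZT16. The spread of 36 libraries includes Control and RevDKO, whose SD between libraries was smaller, so it may understate the error in RevScapTKO. Below, a gene that passed with the spread of 36 libraries is named as such. The SEs printed are from the fit of 12 libraries, unless the covariate is named.

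The activators of the clock were at a near even level over the day in RevScapTKO. Arntl was 141, 107 and 128 RPKTM at ZT4, 117, 117 and 96.7 at ZT10, 117, 110 and 113 at ZT16, and 140, 102 and 134 at ZT22. The 4 times overlapped. In Control it was 36.7 ± 19.7, 6.49 ± 3.6, 83.9 ± 18.7 and 116 ± 3.52 (SD, n = 3) at the same times, and every RevScapTKO library exceeded every Control library of ZT4 (19.7 to 58.2) and ZT10 (4.21 to 10.6). The highest minus lowest time mean of log2 values, called the daily range here, was 0.18 in RevScapTKO (SE 0.19), 0.24 in RevDKO and 4.07 in Control. The time pattern of Arntl differed from that of Control (limma F test of the genotype by time terms, adjusted p = 2.03e-07), and the largest adjusted p among 24 fits that each left out 1 library was 3.59e-06.

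Npas2, the paralog of Clock, was 58.5, 59.2 and 74.6 RPKTM at ZT4, 38.9, 50.6 and 46.2 at ZT10, 72.2, 67.2 and 45.5 at ZT16 and 74.8, 26.6 and 56.4 at ZT22. Control stood at 4.22 ± 6.29, 0.352 ± 0.61, 3.3 ± 3.68 and 42.2 ± 15.9 (SD, n = 3), that is, low at all times but ZT22. The daily range of Npas2 was 0.49 in RevScapTKO, 0.83 in RevDKO and 5.02 in Control, and its pattern differed from Control (limma, adjusted p = 0.00739). The call was lost in 2 of 24 fits that each left out 1 library (highest adjusted p 0.0679, without ZT22 replicate 2 of RevScapTKO). It was also lost without the 3 libraries named above (0.145). Clock itself lay between 432 and 631 RPKTM over the 12 libraries, with a daily range of 0.11 (SE 0.19).

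**Figure D1:**
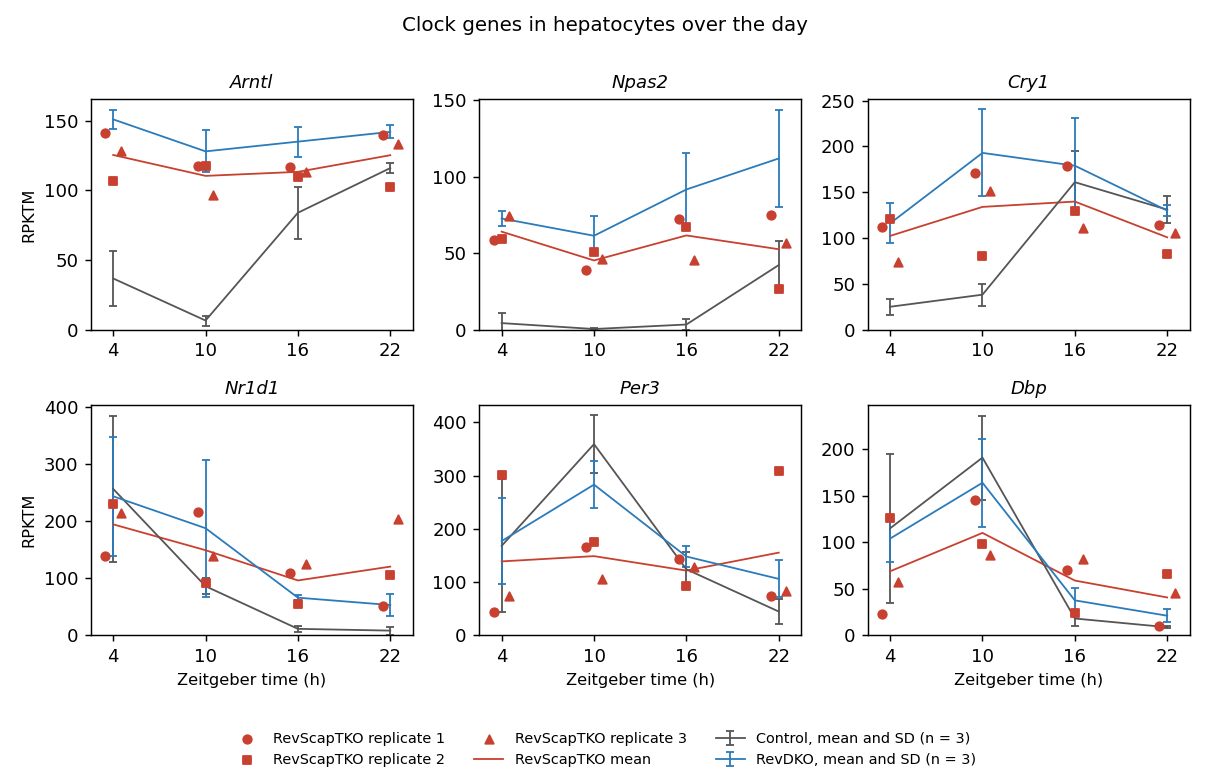
RPKTM of 6 clock genes (Arntl, Npas2, Cry1, Nr1d1, Per3 and Dbp) against zeitgeber time in hours. Red symbols are single RevScapTKO libraries (shape gives the replicate, shifted sideways for legibility) and the red line their mean, and the gray and blue lines with bars are the mean and SD of Control and RevDKO (n = 3). Arntl stays between 96.7 and 141 in RevScapTKO while the Control mean runs from 6.49 to 116.

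The repressors were likewise spread more by library than by time. Cry1 was 112, 121 and 74.3 RPKTM at ZT4, 171, 80 and 151 at ZT10, 178, 130 and 111 at ZT16 and 114, 82.6 and 106 at ZT22, with all times overlapping. Its daily range was 0.45 (SE 0.30) against 0.72 in RevDKO and 2.68 in Control, where it was 24.9 ± 8.78 at ZT4 and 161 ± 34.3 at ZT16 (SD, n = 3), and the pattern differed from Control (limma, adjusted p = 0.00101). Per3 was 43.2, 300.3 and 73 RPKTM at ZT4 and 73.9, 309 and 82.5 at ZT22, with replicate 2 far above the others at both times. At ZT10 it was 166, 176 and 105 and at ZT16 143, 93.6 and 128. Per3, whose Control mean at ZT10 was 359 ± 53.9 (SD, n = 3), had a daily range of 0.55 in RevScapTKO with an SE of 0.64, and the difference from Control was not called (limma, adjusted p = 0.56). Per2 ranged over 0.64 (SE 0.33), Per1 over 0.45 (SE 0.38) and Cry2 over 0.27 (SE 0.24).

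Of the nuclear receptors of the clock, Nr1d1 was 138, 231 and 215 RPKTM at ZT4, 216, 92.2 and 140 at ZT10, 109, 55.3 and 124 at ZT16 and 51.2, 107 and 204 at ZT22. The ZT4 libraries lay above those of ZT16, while ZT10 and ZT22 spanned both. The daily range of this reading was 1.06 in RevScapTKO, 2.15 in RevDKO and 4.88 in Control (limma, adjusted p of the difference from Control 0.00739; 0.0534 without the 3 libraries). Among the 12 core clock genes, 1 (8.33%, against 10.4% of all genes) had an unadjusted p under 0.05.

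Over the 12 core clock genes the median daily range was 0.46 in RevScapTKO, 0.774 in RevDKO and 2.46 in Control, while over all genes tested in the 36 libraries it was 0.575, 0.561 and 0.532. The range was smaller in RevScapTKO than in Control for 11 of 12 core clock genes, where 48.8% of all genes had a smaller range, and smaller than in RevDKO for 11 of 12 (50% of all genes). Rora was the exception against Control, with 0.15 there and 0.47 in RevScapTKO. Tested alone, 8 of 12 were called in Control (6.89% of all genes), 2 in RevDKO (3.63%) and 0 in RevScapTKO (0%).

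**Figure D2:**
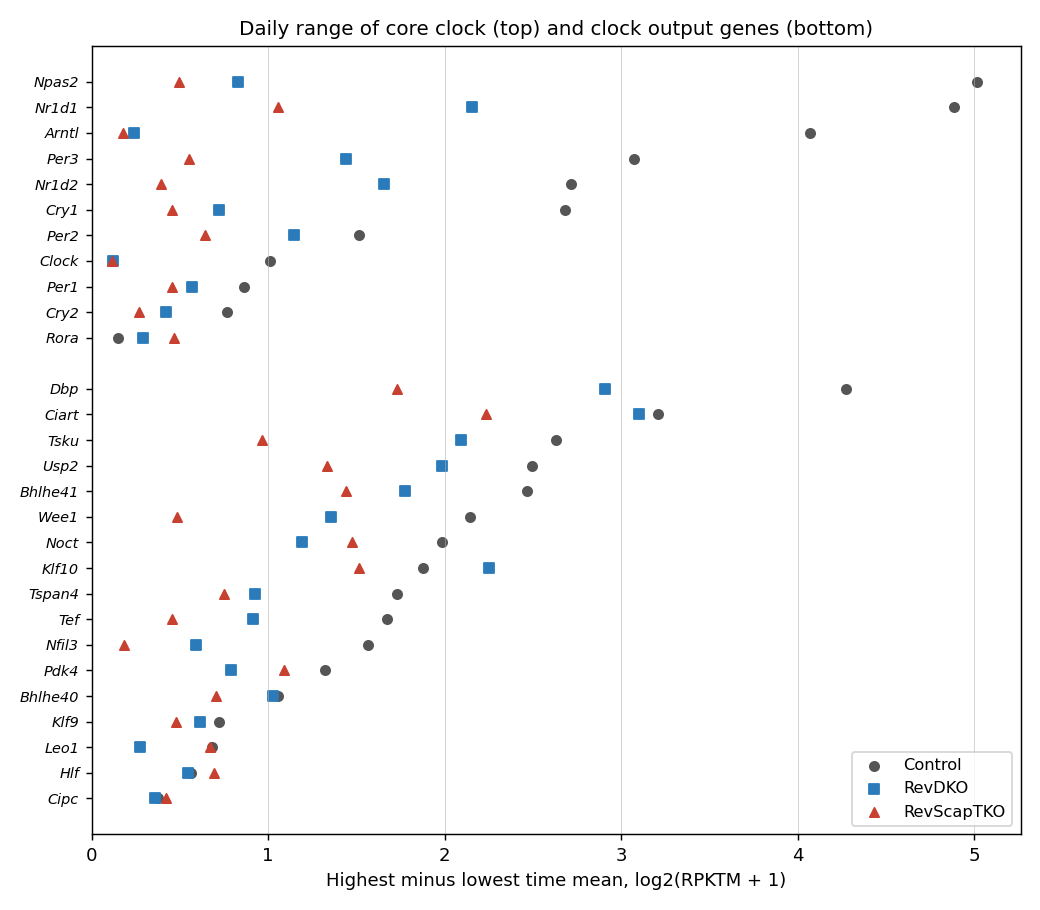
Daily range (highest minus lowest time mean of log2(RPKTM + 1)) of 11 of the 12 core clock genes (top) and 17 clock output genes (bottom) in Control, RevDKO and RevScapTKO (n = 3 libraries per time). In RevScapTKO the core clock ranges lie between 0.11 and 1.06, and the median over all 12 is 0.46 against 2.46 in Control.

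The genes listed as clock output had a median daily range over 17 genes of 0.748 in RevScapTKO, 1.03 in RevDKO and 1.73 in Control. Dbp was 23, 127 and 56.9 RPKTM at ZT4, 146, 98.5 and 86 at ZT10, 70.4, 24.2 and 82.1 at ZT16 and 10.1, 66.1 and 46 at ZT22. All ZT10 values were above all ZT22 values, with a daily range of 1.73 (SE 0.70) against 4.28 in Control. Ciart, which encodes a repressor of CLOCK-BMAL1, was 3.44, 36.2 and 3.73 RPKTM at ZT4, 29.8, 33.4 and 24.1 at ZT10, 22.9, 41.5 and 13.3 at ZT16 and 3.23, 6.16 and 7.47 at ZT22. The ZT22 libraries were all below those of ZT10 and ZT16, and its daily range was 2.23 (SE 0.69) in RevScapTKO, 3.1 in RevDKO and 3.21 in Control, with an adjusted p of 0.431 among the times by limma. Usp2 (1.33, SE 0.46) and Bhlhe41 (1.44, SE 0.45) had an unadjusted p under 0.05 too, which makes 3 of 17 (17.6%, against 10.4% of all genes). The range was smaller than in Control for 15 of 17 genes, and for 48.8% of all genes. In Control 11 of the 17 genes were called (6.89% of all genes), in RevDKO 6 (3.63%) and in RevScapTKO 0 (0%).

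Against Control, the time pattern of 19 genes differed (0.143% of 13326 tested, limma, adjusted p under 0.05). The daily range was smaller in RevScapTKO for 18 and larger for Trmt9b. Beside Arntl, Cry1, Nr1d1 and Npas2 they included Loxl4, Ddc, Gm31508, Blcap, Chka, Mical2, Rtn4rl1, Lrfn3, Avpr1a, Slc16a1, Insig2, Clpx, Gldc and Trmt9b, most of which fall outside the gene lists and are named because the count rests on them. Loxl4, a lysyl oxidase of the extracellular matrix, was 731, 271 and 539 RPKTM at ZT4, 888, 830 and 753 at ZT10, 621, 571 and 610 at ZT16 and 493, 591 and 551 at ZT22, with ZT10 highest. In Control it was 27.2 ± 11.8, 11.9 ± 2.28, 34.8 ± 20.1 and 129 ± 26.7 RPKTM (SD, n = 3), so no Control library reached the lowest RevScapTKO library. Its range was 0.79 against 3.33 (limma, adjusted p = 0.000252). Ddc, which encodes aromatic amino acid decarboxylase, had a range of 0.28 against 1.81 in Control. Insig2, which retains SCAP in the endoplasmic reticulum, lay between 628 and 1033 RPKTM, with a range of 0.17 (SE 0.21) against 2.13 in Control, where it was 278 ± 31 at ZT10 and 1230 ± 274 at ZT22 (SD, n = 3; limma, adjusted p = 0.0291). Trmt9b was 34.6, 20.6 and 28.1 RPKTM at ZT4, 29.2, 39.3 and 34.5 at ZT10, 14.2, 3.75 and 12.5 at ZT16 and 18, 18 and 19.4 at ZT22. The ZT16 libraries lay below all others, and Trmt9b also passed among the times with the spread of 36 libraries. The first 9 genes by p, down to Nr1d1, were called in all 24 fits without 1 library, and the other 10 were lost in 2 to 16 of them. The number called ranged from 10 (without RevScapTKO ZT10 replicate 1) to 47 (without RevScapTKO ZT4 replicate 1), and was 11 without Control ZT10 replicate 1 or 2, 12 without RevScapTKO ZT10 replicate 3, and 11 without the 3 libraries together. Of these 19 promoters 3 held a RORE (Arntl, Ddc and Trmt9b) and 4 an E-box, where 12.8% and 9.86% of all promoters did.

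Against RevDKO, 0 of 13326 genes (0%) differed in time pattern by limma, and 579 (4.34%) had an unadjusted p under 0.05. Leaving out RevScapTKO ZT4 replicate 1 gave 2 genes. Among the genes of smallest p was Lpl, which encodes lipoprotein lipase. Lpl was 77, 87.5 and 139 RPKTM at ZT4, 75.9, 163 and 112 at ZT10, 210, 156 and 115 at ZT16 and 141, 189 and 155 at ZT22 in RevScapTKO, and its RevDKO means were 352, 258, 172 and 126 at these times. The comparisons with Control and with RevDKO share the RevScapTKO libraries.

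Several SREBP target genes lay far below their Control levels in RevScapTKO, a difference in level that was not tested here. Srebf1, which encodes SREBP1, lay between 74 and 440 RPKTM in RevScapTKO against 1220 to 4734 in Control, and its daily range was 0.89 with an SE of 0.51. Scd1, the stearoyl-CoA desaturase, was 8.31, 13.4 and 3.07 RPKTM at ZT4, 9.69, 9.26 and 18.3 at ZT10, 19.6, 17 and 16.6 at ZT16 and 17.2, 14.6 and 37.2 at ZT22. The ZT4 values were below those of ZT16 and ZT22, and no Control library was below 1330 RPKTM. Fasn, the fatty acid synthase, was 168, 129 and 135 RPKTM at ZT4, 117, 172 and 253 at ZT10, 434, 487 and 213 at ZT16 and 664, 134 and 293 at ZT22. All ZT16 libraries of Fasn lay above all ZT4 libraries, with a daily range of 1.31 (SE 0.49) and an adjusted p of 0.482 by limma. Of 23 genes of cholesterol synthesis and uptake, 19 passed the filter, and 1 of them (5.26%, against 10.4% of all genes), Msmo1, had an unadjusted p under 0.05. Msmo1, a sterol demethylase, was 23.2, 10.3 and 21.9 RPKTM at ZT4, 35.1, 41.6 and 40.9 at ZT10, 37.2, 47.4 and 41.9 at ZT16 and 28.9, 32.6 and 39.5 at ZT22, so that ZT4 was below all other times (limma, adjusted p = 0.399). Among the 4 genes that did not pass the filter, Hmgcs1, Mvd and Idi1 stayed under 7 RPKTM in every RevScapTKO library.

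Of the 19 tested genes of fatty acid and triglyceride synthesis, 2 passed with the spread of 36 libraries (0.923% of all genes did). Dgat2, which adds the last acyl chain, was 963, 583 and 542 RPKTM at ZT4, 1431, 1064 and 1468 at ZT10, 1474, 1209 and 1495 at ZT16 and 1280, 872 and 1297 at ZT22. ZT4 was below ZT10 and ZT16 without overlap, with a daily range of 1.04 (SE 0.25). Thrsp, which encodes the lipogenic protein Spot 14, was 30.9, 23.5 and 12.8 RPKTM at ZT4, 130, 116 and 302 at ZT10, 575, 362 and 46.6 at ZT16 and 250, 18.9 and 139 at ZT22, with a daily range of 3.28 (SE 0.95), while its Control means were 342, 2300, 1740 and 587. Lpin1, a phosphatidate phosphatase, was 253, 513 and 444 RPKTM at ZT4, 130, 272 and 980 at ZT10, 1653, 4435 and 669 at ZT16 and 1593, 433 and 1934 at ZT22, with a range of 2.38 (SE 0.79) and an adjusted p of 0.441 by limma. In all, 5 of the 19 genes (26.3%, against 10.4%) had an unadjusted p under 0.05, and in Control 10 were called (6.89% of all genes).

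Of the 24 zonated genes, 4 passed with the spread of 36 libraries, as did 0.923% of all genes. Glul, the glutamine synthetase of the cells around the central vein, was 673, 354 and 514 RPKTM at ZT4, 625, 467 and 1247 at ZT10, 1621, 1926 and 2112 at ZT16 and 1198, 1565 and 1267 at ZT22. Every ZT16 library was above every library of ZT4, ZT10 and ZT22, and every ZT22 library above every one of ZT4. The daily range was 1.91 (SE 0.33) in RevScapTKO, 0.73 in RevDKO and 0.98 in Control, a difference that was not called (limma, adjusted p = 0.83 against Control). Slc1a2, a glutamate transporter with the same zonation, was 1096, 1259 and 966 RPKTM at ZT4, 936, 862 and 1285 at ZT10, 1704, 2180 and 2527 at ZT16 and 980, 1992 and 1239 at ZT22. Its ZT10 mean was lowest, and ZT16 lay above ZT4 and ZT10 but overlapped with ZT22. Arg1, the last enzyme of the urea cycle, was 1720, 418 and 971 RPKTM at ZT4, 2282, 2241 and 2294 at ZT10, 2306, 2631 and 2274 at ZT16 and 2333, 1884 and 1727 at ZT22, so the ZT4 libraries stood lowest. Ctsc, a lysosomal protease listed as periportal, was 124, 85.1 and 182 RPKTM at ZT4 and 285, 496 and 307 at ZT22. Of the 12 pericentral genes 2 (16.7%), and of the 12 periportal genes 3 (25%), had an unadjusted p under 0.05, against 10.4% of all genes.

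Por, the reductase that passes electrons to the cytochromes of drug metabolism, also passed with the spread of 36 libraries. Por was 486, 992 and 341 RPKTM at ZT4, 1158, 1113 and 1008 at ZT10, 1540, 1978 and 1398 at ZT16 and 661, 739 and 1050 at ZT22, with ZT16 above all other libraries and a daily range of 1.56 (SE 0.33), beside 1.85 in Control and 1.93 in RevDKO. Igfbp1, an insulin-repressed binder of insulin-like growth factors, was 336, 283 and 318 RPKTM at ZT4, 43.3, 81.2 and 166 at ZT10, 52.3, 91.4 and 97 at ZT16 and 122, 285 and 769 at ZT22. The ZT4 libraries were above all of ZT10 and ZT16, Igfbp1 passed with the spread of 36 libraries, and the daily range was 2.0 (SE 0.58) in RevScapTKO, 2.32 in RevDKO and 1.96 in Control. Inhbe, which encodes the activin E subunit, was 167, 166 and 146 RPKTM at ZT4, 301, 420 and 234 at ZT10, 159, 153 and 186 at ZT16 and 128, 146 and 104 at ZT22, with ZT10 above all others (daily range 1.31, SE 0.22; limma, adjusted p = 0.399).

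Gsn, which encodes the actin-severing protein gelsolin, was 7.72, 6.43 and 8.94 RPKTM at ZT4, 6.07, 28.6 and 11.5 at ZT10, 38.1, 36.4 and 52.2 at ZT16 and 37.3, 66.6 and 60.3 at ZT22. The values of ZT16 and ZT22 were above all of ZT4 and ZT10. Gsn passed with the spread of 36 libraries, with a daily range of 2.65 (SE 0.43) in RevScapTKO, 2.06 in RevDKO and 1.45 in Control. Gfra2, a receptor of the GDNF family, was 6.47, 7.94 and 7.31 RPKTM at ZT4, 2.9, 4.35 and 4.88 at ZT10, 15.5, 15.5 and 17.9 at ZT16 and 16.1, 16.6 and 16.5 at ZT22. Replicates of Gfra2 lay close together and it had the smallest p in the fit of 12 libraries (adjusted 0.285, limma), but it was not called with the spread of 36 libraries (0.31).

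**Figure D3:**
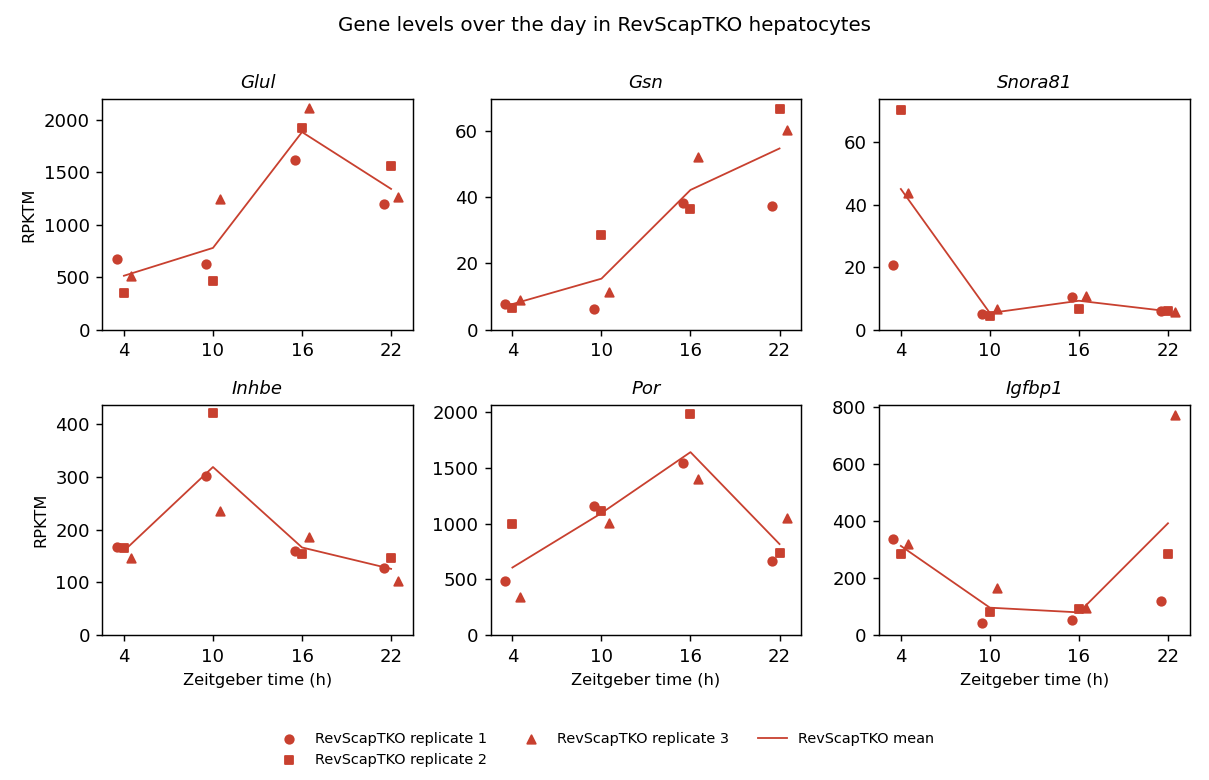
RPKTM of Glul, Gsn, Snora81, Inhbe, Por and Igfbp1 in the 12 RevScapTKO libraries against zeitgeber time in hours, with the mean as a line. Glul and Por are highest at ZT16, Inhbe at ZT10 and Snora81 at ZT4 in every library of that time, while the Igfbp1 libraries of ZT22 spread from 122 to 769.

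Small noncoding RNA genes, a group chosen after their values were seen, were highest at ZT4. Of 63 tested, 59 (93.7%) had their highest mean at ZT4, where 30.2% of all genes did, with a median daily range of 1.3. Their summed level was 5277, 7534 and 7039 RPKTM at ZT4, 3734, 3458 and 4138 at ZT10, 4834, 3824 and 4666 at ZT16 and 3088, 2959 and 3364 at ZT22, so that ZT4 and ZT22 did not overlap. Snora81, which guides pseudouridylation of ribosomal RNA, was 20.8, 70.6 and 43.8 RPKTM at ZT4, and between 4.21 and 10.7 at the other times. Vaultrc5, a vault RNA, had a daily range of 3.22, and Rnu12, the RNA of the minor spliceosome, was 113, 584 and 243 RPKTM at ZT4 and 22.8 to 58 at the other times. Snora81, Vaultrc5 and Rnu12 passed with the spread of 36 libraries. Many such genes lie inside introns of host genes, and reads of the host cannot be told from theirs here.

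**Figure D4:**
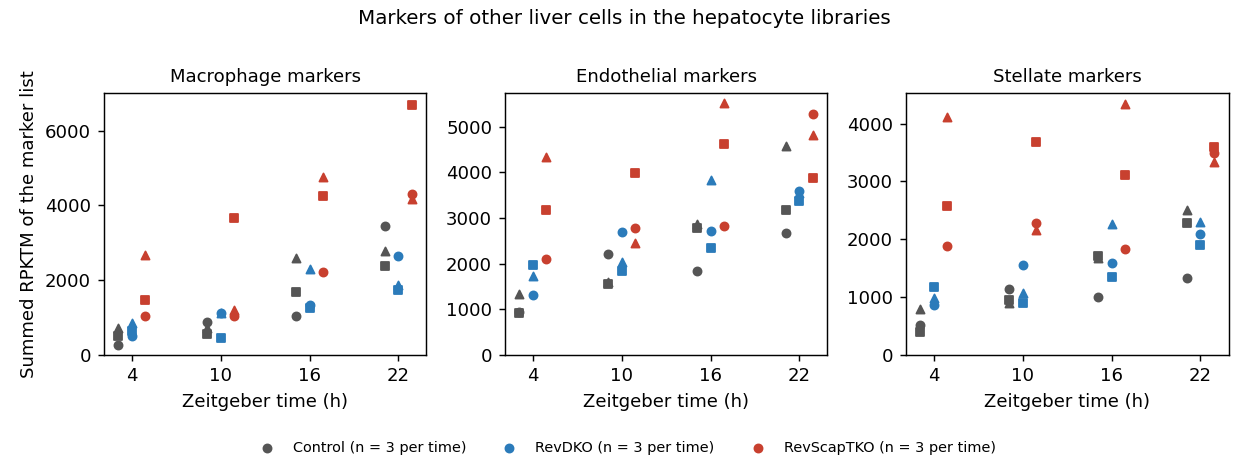
Summed RPKTM of macrophage, endothelial and stellate cell markers in each hepatocyte library against zeitgeber time in hours, shifted sideways by genotype. Shapes give the replicate (circle 1, square 2, triangle 3). In RevScapTKO the macrophage sum lies between 4160 and 6690 at ZT22 and between 1046 and 2681 at ZT4.

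Macrophage markers stood higher at ZT22 than at ZT4 and ZT10. The sum of the 12 macrophage markers was 1046, 1477 and 2681 RPKTM at ZT4, 1034, 3654 and 1197 at ZT10, 2209, 4257 and 4774 at ZT16 and 4319, 6690 and 4160 at ZT22. No marker was at 0 in any library, and ZT22 did not overlap with ZT4 or ZT10. All 12 macrophage markers had their highest mean at ZT22, as did 11 of 12 endothelial and 8 of 10 stellate markers, where 21.5% of all genes did. Clec4f, the C-type lectin of Kupffer cells, was 255, 252 and 749 RPKTM at ZT4, 223, 783 and 309 at ZT10, 553, 1202 and 1294 at ZT16 and 1013, 1704 and 980 at ZT22. Clec4f and C1qc, a complement subunit, passed with the spread of 36 libraries, and 10 of the 12 macrophage markers (83.3%, against 10.4%) had an unadjusted p under 0.05. Of the endothelial markers 1 of 12 (8.33%) and of the stellate markers 3 of 10 (30%) had one, none passed with the spread of 36 libraries, and the endothelial sums of ZT4 (2107 to 4341 RPKTM) and ZT22 (3889 to 5285) overlapped. In Control the macrophage sums were 262 to 719 RPKTM at ZT4 and 2374 to 3445 at ZT22, and in RevDKO 515 to 865 and 1729 to 2644. Fewer cells of a type and less RNA per cell cannot be told apart in such libraries. Several of the genes that passed with the spread of 36 libraries, Tyrobp, Cd163, Lair1 and Lrrc25 among them, are known from phagocytes and were named after their values were seen. With the mean log2 level of the macrophage markers as a covariate, 30 genes (0.239%) passed the F test, 7 of which were among the 116 (Aph1a, Car14, Mybl1, Snora81, Srrm2, Tmem37 and Vaultrc5). Of the genes described above as passing with the spread of 36 libraries, Snora81 and Vaultrc5 were among these 30. Glul, Slc1a2, Arg1, Ctsc, Por, Dgat2, Thrsp, Igfbp1, Gsn, Rnu12, Trmt9b, Clec4f and C1qc were not. With the covariate, the difference between highest and lowest time was 2.14 (SE 0.373) for Glul (limma, adjusted p of that pair of times 0.0154). It was 1.68 (SE 0.385) for Por (0.0344), 1.41 (SE 0.233) for Dgat2 (0.0127) and 1.56 (SE 0.443) for Arg1 (0.0627). For Gsn it was 1.6 (SE 0.462; 0.0755) in place of 2.65. It was also smaller for Ctsc (0.84 in place of 1.49), Slc1a2 (1.02 in place of 1.06), Trmt9b (1.73 in place of 1.82) and Clec4f (-0.017 in place of 1.71). It was larger for Thrsp (4.47 in place of 3.28), Igfbp1 (2.12 in place of 2.0) and Rnu12 (3.08 in place of 2.95). These pairs were picked by their values in the same libraries, and the covariate itself differed between times. Whether macrophage RNA accounts for the differences was not tested. Between pairs, the covariate fit gave 553 genes for ZT16 against ZT4, 295 for ZT22 against ZT4 and 2 for ZT10 against ZT4. The 19 genes that differed from Control were all still called with this covariate.

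Replicates of 1 time lay far apart for some genes of drug metabolism, major urinary proteins and genes of the cell cycle. ZT4 replicate 2 held the highest value of the 12 libraries for 16.8% of genes and the lowest for 17.8%, and ZT22 replicate 2 for 12.1% and 13.1%. In ZT4 replicate 2 lay the highest value of 12 of 19 cell cycle genes and 11 of 22 drug metabolism genes, and the lowest of 4 of 5 Mup genes. Cyp2a4, a steroid hydroxylase, was 225, 13136 and 6031 RPKTM at ZT4, 67.8, 11707 and 248 at ZT10, 41.5, 2466 and 1929 at ZT16 and 50.5, 12963 and 148 at ZT22, so replicate 2 was highest at all times. Cyp3a11, the main inducible cytochrome of drug clearance, was 385, 8405 and 744 RPKTM at ZT4 and 647, 6693 and 648 at ZT10, but 1086, 749 and 1089 at ZT16. Mki67, a marker of dividing cells, was 50.8, 1030 and 111 RPKTM at ZT4, and Mup7 was 4140, 28.6 and 99.3 there. Cyp2a4 shares most of its sequence with Cyp2a5, and the Mup genes with each other, so how reads were split between them is uncertain. The times overlapped for each of them. Cyp2a4 had a range of 2.5 with an SE of 2.39, Mup7 3.68 with 1.53, and Mki67 1.63 with 1.26. Of the 22 drug metabolism genes tested, 10 (45.5%, against 30.2% of all genes) were highest at ZT4, which includes ZT4 replicate 2.

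**Figure D5:**
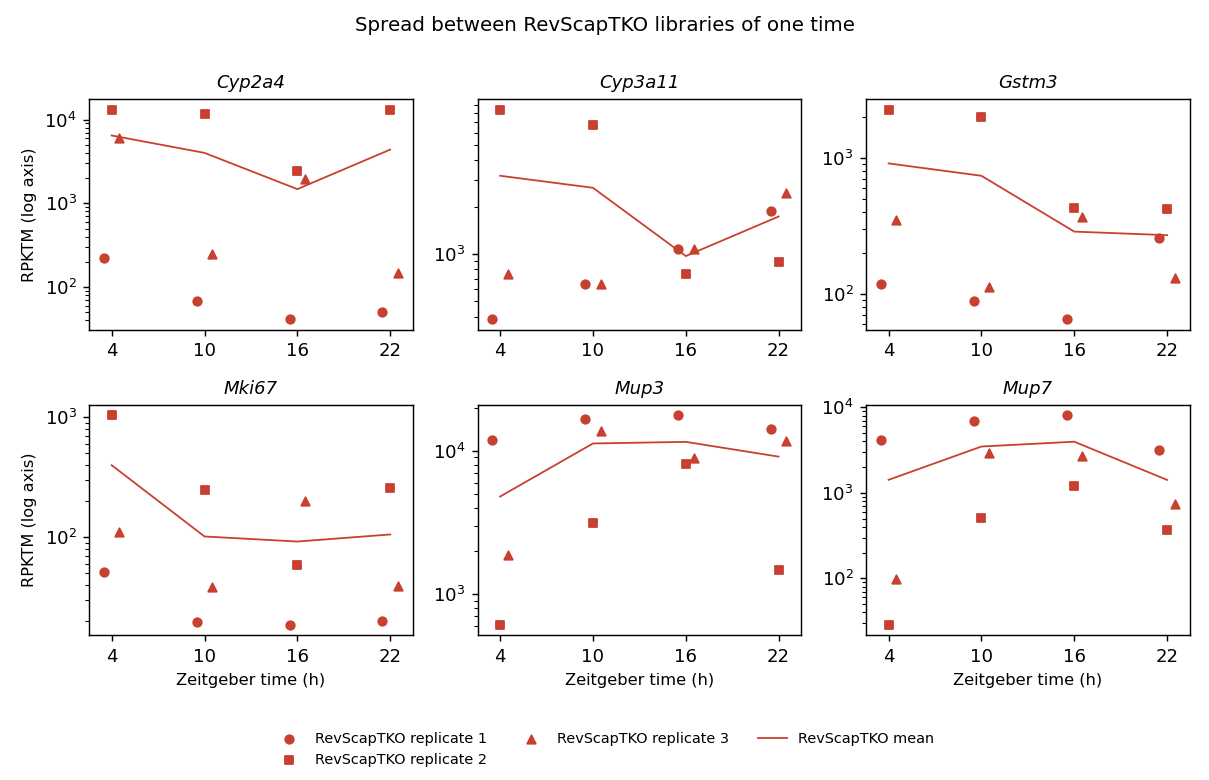
RPKTM on a log axis of Cyp2a4, Cyp3a11, Gstm3, Mki67, Mup3 and Mup7 in the 12 RevScapTKO libraries against zeitgeber time in hours, with the mean as a line. Replicates of 1 time differ up to 13136 against 225 RPKTM for Cyp2a4 at ZT4.

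Among stress and hormone responses no member passed, also not with the spread of 36 libraries, in the glucocorticoid, unfolded protein, heat shock and immediate early lists. Of 12 glucocorticoid targets, 5 (41.7%, against 10.4%) had an unadjusted p under 0.05. Tsc22d3, which encodes the glucocorticoid-induced leucine zipper, was 270, 257 and 124 RPKTM at ZT4, 497, 359 and 523 at ZT10, 537, 603 and 401 at ZT16 and 708, 238 and 456 at ZT22. Its ZT4 libraries were below those of ZT10 and ZT16 (daily range 1.30, SE 0.38; limma, adjusted p = 0.431). Fkbp5, a cochaperone of the glucocorticoid receptor, had a range of 1.47 (SE 0.51) in RevScapTKO, 3.32 in RevDKO and 2.52 in Control. Cdkn1a, the cell cycle inhibitor p21, was 22.8, 46.8 and 39.2 RPKTM at ZT10 and 63.6, 113 and 103 at ZT16, and its range was 1.35 (SE 0.29) against 4.53 in Control, a difference that was not called (limma, adjusted p = 0.12).

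Of 21 genes of the unfolded protein response, 6 (28.6%, against 10.4% of all genes) had an unadjusted p under 0.05 and 11 (52.4%, against 21.5%) were highest at ZT22, where the macrophage markers were highest too. Hspa5, the chaperone BiP, was 6031, 3447 and 7592 RPKTM at ZT4, 3493, 4870 and 4912 at ZT10, 6781, 7154 and 7707 at ZT16 and 8520, 8155 and 7485 at ZT22, so that ZT10 was below ZT16 and ZT22. Its daily range was 0.88 (SE 0.28), and 0.59 with the macrophage covariate. Creld2, which is induced by stress of the endoplasmic reticulum, was 65.8, 75.6 and 98.8 RPKTM at ZT10 and 184, 168 and 230 at ZT22 (daily range 1.27, SE 0.26), beside 1.69 in Control. With the macrophage covariate the difference was larger for Creld2 (1.52, SE 0.358) and for Manf of the same list (1.51, SE 0.431, in place of 0.94). For Hsp90b1, which was not highest at ZT22, it was 0.87 (SE 0.203) in place of 0.86. The adjusted p of these pairs of times with the covariate was 0.663 for Hspa5, 0.16 for Creld2, 0.0738 for Manf and 0.0897 for Hsp90b1 (limma). Whether macrophage RNA accounts for these differences was not tested. Of the immediate early genes, Fos was 8.5, 4.53 and 14.8 RPKTM at ZT4, 2.18, 1.28 and 2.22 at ZT10, 1.54, 1.92 and 2.81 at ZT16 and 5.93, 5.55 and 11 at ZT22. ZT4 and ZT22 stood above ZT10 and ZT16 without overlap, but every ZT10 and ZT16 value was under 5 RPKTM, the value of the filter. Fos had a daily range of 1.72 (SE 0.45; limma, adjusted p of that pair of times 0.23), while the median range of the 15 genes tested was 0.942.

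In other lists, Acadl (fatty acid oxidation) and Dkc1 (ribosome biogenesis) passed with the spread of 36 libraries. Acadl, a dehydrogenase of long-chain fatty acids, was 256, 254 and 215 RPKTM at ZT4, 352, 281 and 292 at ZT10, 264, 174 and 204 at ZT16 and 140, 75.4 and 202 at ZT22, with all ZT10 values above the others (daily range 1.25, SE 0.30). Dkc1, the pseudouridine synthase of H/ACA particles, was 64.4, 60.9 and 67.9 RPKTM at ZT10 and 42.5, 14 and 26.7 at ZT22 (daily range 1.32, SE 0.31). Both differences were smaller with the macrophage covariate, at 0.75 for Acadl (limma, adjusted p of that pair of times 0.53) and 0.92 for Dkc1 (0.474). Of 20 genes of ribosome biogenesis, 0 were highest at ZT22 (21.5% of all genes were) and 5 (25%, against 10.4%) had an unadjusted p under 0.05. Of the bile acid genes, Cyp8b1, which sets the share of cholic acid, was 3121, 4509 and 3227 RPKTM at ZT22 and 1417 to 2466 at the other times, with a daily range of 0.99 (SE 0.25; limma, adjusted p = 0.399). Cyp7a1, the rate-limiting enzyme of bile acid synthesis, was 3714, 915 and 772 RPKTM at ZT22 and 984, 1943 and 1800 at ZT16, and its times overlapped.

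By JTK_CYCLE, the rank test of the study, in which the series of 12 libraries was entered 2 times in a row, 1644 of 12563 genes (13.1%) were rhythmic in RevScapTKO, against 2723 of 12620 (21.6%) in Control and 2844 of 12579 (22.6%) in RevDKO. Entering the series again adds no data. Entered once, 252 genes (2.01%) were rhythmic in RevScapTKO, 670 (5.31%) in Control and 642 (5.1%) in RevDKO. The JTK_CYCLE p was not adjusted over genes, so these counts cannot be set beside the adjusted counts of limma. The peak was at ZT4 for 438 genes, ZT10 for 367, ZT16 for 346 and ZT22 for 493. Of the core clock genes 0 of 12 were rhythmic in RevScapTKO, and of the clock output genes 5 of 17, namely Bhlhe41, Dbp, Pdk4, Tspan4 and Usp2. Of the macrophage markers 10 of 12 were rhythmic and peaked at ZT22, and of the unfolded protein response genes 8 of 21. Glul, Por, Arg1, Dgat2 and Thrsp were rhythmic with a peak at ZT16. These calls by gene and list are from the series entered 2 times. Entered once, the JTK_CYCLE p was 0.172 for Glul and Thrsp, 0.0239 for Arg1 and Dgat2 and 0.00133 for Por. For the 5 clock output genes it was 0.0697 to 0.257. Of the rhythmic macrophage markers only Adgre1, Csf1r, Timd4 and Marco stayed under 0.05. Of the rhythmic unfolded protein response genes only Hspa5, Creld2 and Hsp90b1 did. Each p entered once is the best over patterns of 18 h and 24 h. The period behind it is not given here, so it does not by itself show a 24 h rhythm.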

How the data were processed

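The authors sequenced stranded total RNA after ribosomal depletion. They deposited RPKM-type values, named RPKTM (reads per kilobase of transcript scaled to 10000000 reads), quantile normalized over 36 hepatocyte libraries. STAR, HOMER and build mm9 stand in the submitters' processing notes, and their versions and the strand setting of the counting are not given in the sources used here. Quantile normalization gives every library the same distribution, so a shift of all transcripts cannot be seen, and depth is unknown.

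From 42322 transcripts, the one with the highest mean over the 12 RevScapTKO columns was kept for each of 25095 symbols, and 12532 symbols without at least 3 columns over 5 were left out. Values were tested as log2(RPKTM + 1), a scale that understates changes of low genes, with limma 3.58.1 (R 4.3.3, mean-variance trend): an F test over the 4 time means, the 6 pairs, a 24 h cosine, and genotype by time terms on 36 libraries, with Benjamini-Hochberg adjustment at 0.05. JTK_CYCLE was rewritten in Python 3.11.15 and called at p under 0.05, a period of 24 h and a highest over lowest time mean above 1.5. Its p was corrected for the 7 patterns tried in a gene, and not over genes. The limma and JTK_CYCLE steps were tested on simulated data. The members and lists were chosen with earlier results of these data known. Named were the targeted genes, the 10 genes of smallest p among times, the called genes, the leading genes against each genotype, and list members. The other tables of the series were normalized apart and were not used here. A few genes that entered the counts are not reported here by name.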

Additional observations from a re-analysis of the deposited data

Results flagged for a closer look

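The time pattern of 19 genes differed between RevScapTKO and Control hepatocytes by limma's F test of the genotype by time terms. The adjusted p was 2.03e-07 for Arntl, 0.000252 for Loxl4, 0.00101 for Ddc and for Cry1, 0.00159 for Gm31508, 0.00594 for Blcap, and 0.00739 for Chka, Nr1d1 and Npas2. It was 0.0103 for Mical2, 0.0144 for Rtn4rl1, 0.0189 for Lrfn3, 0.0291 for Avpr1a, Slc16a1, Insig2, Clpx and Gldc, and 0.0461 for Trmt9b. Groups of 3 libraries were too small for a check of single outlying libraries.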

How the results depend on the processing

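Of 247 alternatives for the 11 counts of genes, 212 stayed within 1.5 times the reported count and 35 did not. With no filter the test among the times gave 2 genes, ZT16 against ZT4 1, ZT22 against ZT4 2, ZT22 against ZT10 1, ZT22 against ZT16 1, and the pattern against RevDKO 4. With the spread of 36 libraries the test among the times gave 116 genes, the cosine 54, and the pairs 204 (ZT10 against ZT4), 91 (ZT16 against ZT4), 211 (ZT22 against ZT4), 2 (ZT16 against ZT10) and 8 (ZT22 against ZT10). With the macrophage covariate the test among the times gave 30, and ZT10, ZT16 and ZT22 against ZT4 gave 2, 553 and 295. Array weights, chosen after seeing the data, gave 7. The pattern against Control gave 9 genes with only its 24 libraries and 11 without ZT4, ZT10 and ZT22 replicate 2, and JTK_CYCLE with the series entered once gave 252. Leaving out 1 library gave 0 to 3 genes among the times, 0 to 388 for ZT10 against ZT4, 0 to 5 for ZT16 against ZT4, 0 to 11 for ZT22 against ZT4, 0 to 1 for the cosine, 0 to 2 against RevDKO and 10 to 47 against Control, the upper ends without RevScapTKO ZT4 replicate 1 except for the cosine (ZT10 replicate 2 or 3). Of 1380 alternatives for 92 named genes, 1351 kept direction and side of the threshold, 26 newly passed it, and 3 turned: Clec4f to -0.01675 with the covariate, Per3 to -0.03114 (range -0.03114 to 1.353) and Clock to -0.006989 (range -0.006989 to 0.2383) without 1 library. The replicate block changed no call: it gave 0 genes among the times. Deviations of same-numbered libraries correlated at -0.292 to 0.568, with 13 of 18 pairs over 0.1 (6 of 6 for replicate 1, 5 of 6 for replicate 2, 2 of 6 for replicate 3), against 12 of 36 pairs of different numbers (-0.55 to 0.375). Of the 12 libraries 8 had their highest mean correlation with their own number, a hint from the data of something shared, but not every pair was over 0.1 and the labels name nothing shared, so the libraries were not treated as paired. The cause of these changes was not tested. With 3 libraries a time and unknown depth, low genes are the least certain.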
